A study of Mus musculus with 11 samples.

Results

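The motile cilia and axoneme genes are 45 listed mouse genes that encode the moving machinery of the cilium, the factor that switches it on and a few other proteins of ciliated cells. All 45 were found among the 23255 genes measured, and all 45 had a mean of at least 1 over the 11 libraries, as had 16225 genes in all, so none was lost to the filter on low values. Dnai1 and Dnai2 were matched through the older symbols that RefSeq lists for them. The rule that lists them names genes and uses no measured value, but the list was drawn up with earlier results of these data known.

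RNA from the lungs of C57BL/6 mice was sequenced after ribosomal RNA was depleted, in a series concerned with naive CD4+ T cells in the lung inflammation that osimertinib can cause. The 3 control libraries came from untreated mice. The 3 naphthalene libraries came from mice given naphthalene, an aromatic hydrocarbon toxic to airway club cells, and the 5 osimertinib libraries from mice that received osimertinib, which blocks the EGF receptor kinase, after naphthalene. Dose, time, age and sex are not given in the sources used here, nor is any genotype beyond the strain, and no group had osimertinib without naphthalene. Whether each library is a separate animal is also not stated, so p-values measure only the spread between these libraries, which may be partly technical.

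A motile cilium is a hair-like extension of the cell built around the axoneme, a ring of microtubule doublets with a central pair of single microtubules. Outer and inner dynein arms on the doublets make them slide, and radial spokes, the central pair apparatus and the dynein regulatory complex turn sliding into an ordered beat. In the airways multiciliated cells move mucus towards the throat, and inherited loss of many of these genes causes primary ciliary dyskinesia.

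Some libraries stood apart before any ciliary gene was considered. Reads assigned to genes numbered 5045361 to 13009975 a library. In naphthalene 1 to 3 and osimertinib 2, a single gene (ENSMUSG00000119584, unnamed in the annotation used) took 43.9% to 60.3% of them, against at most 0.0337% in every other library, so this share and the naphthalene group cannot be told apart against control. In osimertinib 3 another such gene (ENSMUSG00000118841) took 16.7%, against 0.836% to 4.55% in the others. Reads on the 45 members together ranged from 1720 in naphthalene 3 to 23444 in osimertinib 4, and the median member had 19 reads in naphthalene 3 against 290 in osimertinib 4. The fewest reads behind any member's value were 5, for Dnai2 in naphthalene 3.

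Stretches upstream of the start show what several of these genes share in sequence. RFX factors, which act with Foxj1 in ciliated cells, bind the X-box, a site made of paired half-sites. The 250 bases before the start were searched on both strands for GTTGCCNNGNNAC, GTTGCCNNNGNNAC and GTTGCCNNNNGNNAC, where N is any base, and these spellings were settled on after other forms had been tried. At least 1 of them was present for 7 of the 38 members with a promoter in the RefSeq table (18.4%), namely Cfap44, Cfap46, Dnai2, Hydin, Spag16, Tekt1 and Tekt2, and for 1.82% of the 27025 genes in that table. Their shared half-site alone, GTTGCC, which each of the 3 forms contains, was present for 11 of 38 (28.9%) and for 11.8% of all genes. A forkhead word, GTAAACA, that Foxj1 and its relatives can bind, was present for 3 of 38 (Ak7, Cfap43 and Sntn), or 7.89%, and for 3.54% of all genes. A match is a run of letters and not evidence of binding.

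The following 4 stretches are shown because they hold the X-box near the start in genes of different parts of the axoneme: Cfap44 of the inner arm, Dnai2 of the outer arm, Hydin of the central pair and Tekt2 of the doublet interior. Each is the 250 bases before the start from RefSeq, build GRCm38.p6, printed 5′ to 3′ on the gene's own strand, with the X-box in capitals. In all 4 it reads on the opposite strand, and its first base lies at most 33 bases before the start. Tekt2 has 3 starts in the table, and the first with a match is shown. From another of its starts the match lies 71 to 59 bases before it.
Cfap44 chr16:44394549-44394798 (+): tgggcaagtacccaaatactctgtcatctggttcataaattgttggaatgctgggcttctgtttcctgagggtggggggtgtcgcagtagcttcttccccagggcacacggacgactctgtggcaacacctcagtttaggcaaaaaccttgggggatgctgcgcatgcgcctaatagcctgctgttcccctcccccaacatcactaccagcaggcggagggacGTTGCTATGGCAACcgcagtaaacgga
Dnai2 chr11:114727169-114727418 (+): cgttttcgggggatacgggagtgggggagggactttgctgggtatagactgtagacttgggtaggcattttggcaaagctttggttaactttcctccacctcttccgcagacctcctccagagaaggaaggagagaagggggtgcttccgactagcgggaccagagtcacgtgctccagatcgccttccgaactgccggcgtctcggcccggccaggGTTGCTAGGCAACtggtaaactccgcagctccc
Hydin chr8:110266727-110266976 (+): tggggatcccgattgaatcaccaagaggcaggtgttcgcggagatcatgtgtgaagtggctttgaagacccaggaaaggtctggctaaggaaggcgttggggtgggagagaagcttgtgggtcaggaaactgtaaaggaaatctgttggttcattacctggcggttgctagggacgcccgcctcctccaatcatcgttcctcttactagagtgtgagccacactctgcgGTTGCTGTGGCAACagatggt
Tekt2 chr4:126325689-126325938 (-): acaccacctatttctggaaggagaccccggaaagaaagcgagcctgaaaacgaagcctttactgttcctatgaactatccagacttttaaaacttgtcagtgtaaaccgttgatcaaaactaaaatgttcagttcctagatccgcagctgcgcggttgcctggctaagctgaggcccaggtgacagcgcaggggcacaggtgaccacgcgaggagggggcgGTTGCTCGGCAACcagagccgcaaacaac

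Per kilobase of exon, which allows levels of different genes to be set side by side, Tppp3 and Foxj1 stood above the other 43 members. Tppp3, a tubulin-binding protein abundant in ciliated cells, averaged 86.6 CPM per kilobase over the 11 libraries, and Foxj1, the forkhead factor that switches on the motile cilium programme, averaged 18.2. The next levels were 7.80 for Dnah6, 6.86 for Rsph1, 6.58 for Dnah5, 5.47 for Cfap126, 5.32 for Sntn and 5.03 for Cfap206, and the lowest were 1.35 for Ak9, 1.23 for Cfap45 and 1.03 for Dnah2. Of the 44 pairs of neighbours in this order, only the first 2 (Tppp3 over Foxj1, Foxj1 over Dnah6) kept their order in 11 of 11 libraries, so most neighbours did not differ beyond their spread. Exon lengths came from the GENCODE M21 annotation.

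No member passed the test in any comparison. Values were tested as log2(value + 1), the deposited normalised signal plus 1, with limma across all 16225 genes. The signal is CPM, reads scaled by a library size that the authors adjusted, so libraries do not share 1 total. Over these genes the values summed to between 640110 in osimertinib 1 and 2313070 in naphthalene 3. A gene was called at a Benjamini-Hochberg adjusted p under 0.05. Where 3 values stand together, they are for naphthalene against control, then osimertinib against naphthalene, then osimertinib against control. In naphthalene against control 0 of 45 members were called, against 0% of all genes tested. Osimertinib against naphthalene gave 0 of 45, against 0%, and osimertinib against control 0 of 45, against 0.00616%, which is 1 gene. On the reads recovered from the deposited values edgeR and DESeq2 each called 0 members in each comparison too, with the limit that DESeq2 gave an adjusted p to 12 of the 45 in naphthalene against control and to 45 in each of the others. Over all genes with an adjusted p DESeq2 called 0.227%, 0.135% and 0.465% in the 3 comparisons, and edgeR 0%, 0% and 0.00616%.

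**Figure D1:**
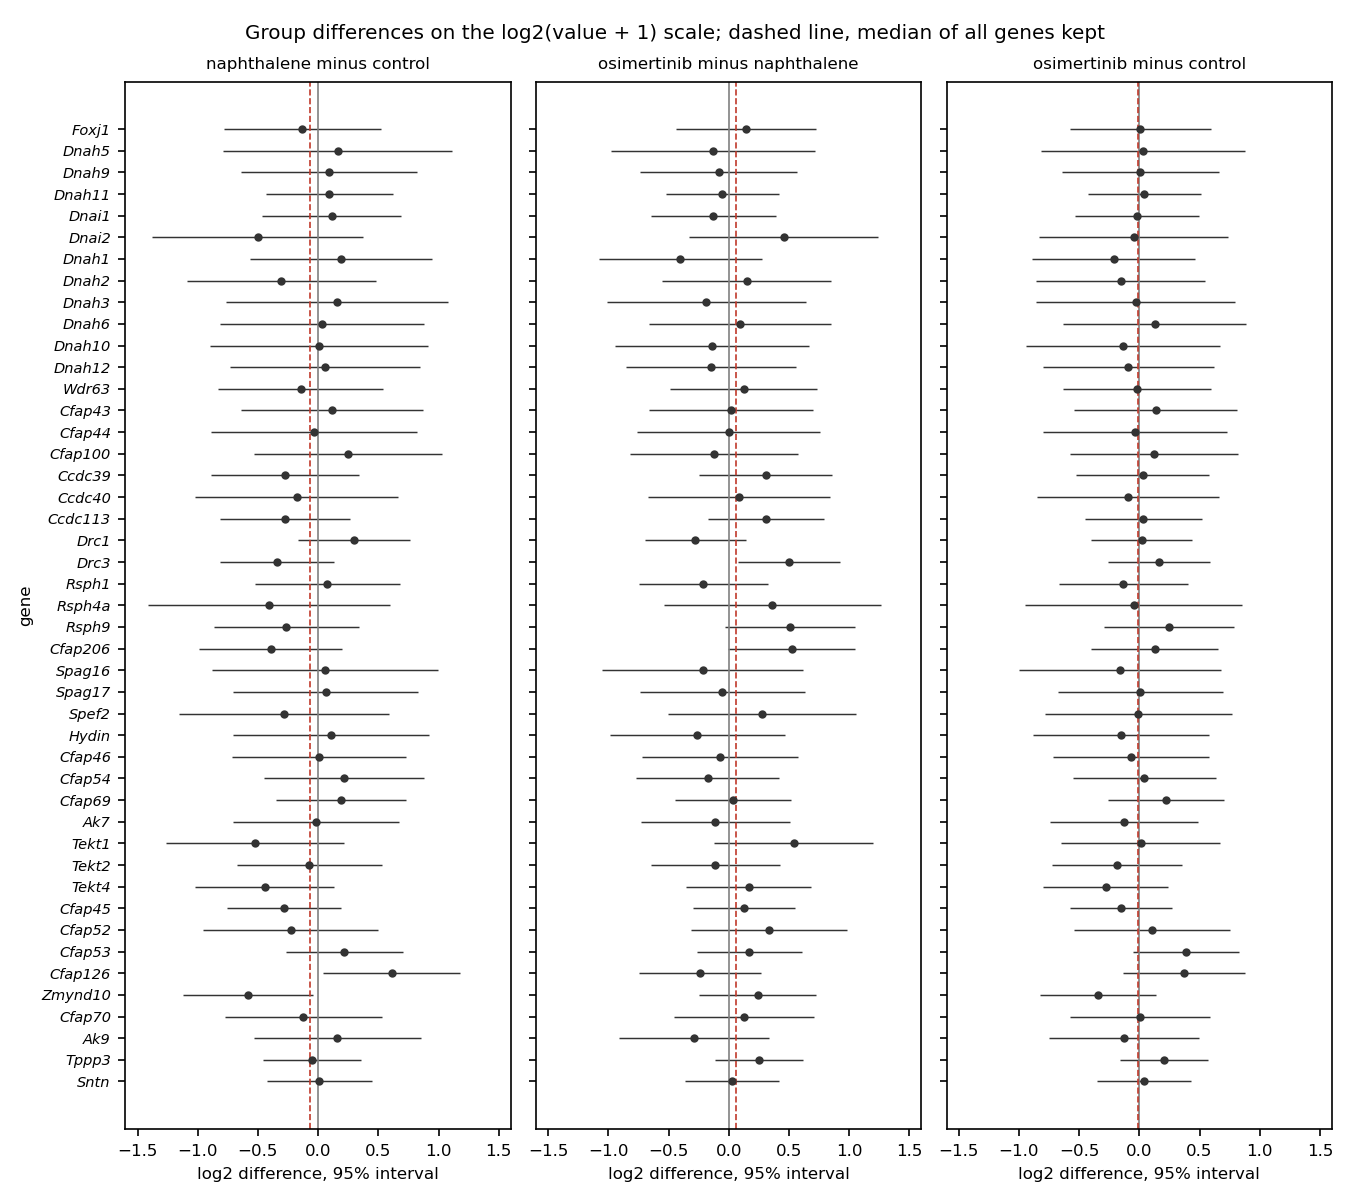
Differences between groups for each of the 45 genes, on the log2(value + 1) scale (x axis), with 95% intervals from limma, for naphthalene minus control, osimertinib minus naphthalene and osimertinib minus control. The points range from −0.58 (Zmynd10) to 0.61 (Cfap126), from −0.40 (Dnah1) to 0.54 (Tekt1) and from −0.34 (Zmynd10) to 0.39 (Cfap53), and the intervals hold 0 for 43, 44 and 45 genes, before adjustment over all genes.

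The intervals say how large a change the data leave room for. The 95% interval of the log2 difference lay within 1 of 0 for 33 members in naphthalene against control, 36 in osimertinib against naphthalene and 45 in osimertinib against control. That is under a doubling or halving of the value plus 1. For members of a few CPM it leaves room for a larger change of the value itself. It lay within 0.5 for at most 2 members. The bound farthest from 0 was for Rsph4a, a spoke head protein, at −1.41 in naphthalene against control and 1.26 in osimertinib against naphthalene. In osimertinib against control it was −0.998, for Spag16 of the central pair. Fewer cells of a type and less RNA per cell cannot be told apart in lung tissue, so none of these differences says which of them varied.

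The median log2 difference of the 45 members was 0.0066 in naphthalene against control, where the median of all genes was −0.06, with 23 members above 0 (51.1%, against 38% of all genes). It was 0.03 in osimertinib against naphthalene, where all genes had 0.06, with 24 above 0 (53.3%, against 60.5%). In osimertinib against control it was 0.0069, where all genes had −0.0082, with 23 above 0 (51.1%, against 48%). Without 1 library these medians crossed 0: the first was −0.18 without naphthalene 2 and 0.19 without naphthalene 3, the second −0.19 without naphthalene 3 and 0.17 without naphthalene 2, and the third −0.12 without osimertinib 4 and 0.12 without osimertinib 5. With a term in the fit for the high share of reads in 1 gene, the first was −0.37 and the second 0.27; among libraries outside the naphthalene group, osimertinib 2 is the only one with that share. With equal totals outside the genes of largest share, the third was −0.05, with 11 members above 0, where all genes had −0.06.

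At an unadjusted p under 0.05, in the same limma fit, naphthalene against control had 1 member higher (Cfap126, 2.22%, against 1.73% of all genes) and 1 lower (Zmynd10, 2.22%, against 5.74%). In osimertinib against naphthalene there was 1 higher (Drc3, against 7.08%) and 0 lower (against 3.22%), and in osimertinib against control 0 either way (against 2.31% higher and 2.5% lower). Naphthalene and control libraries did not overlap for 2 members, Cfap53 and Cfap126, both higher (4.44%, against 4.94% of all genes), and for 0 lower (against 11.2%). Every member overlapped in both comparisons of osimertinib, where the backgrounds were 3.82% higher and 2.12% lower against naphthalene, and 2.91% and 3.43% against control. These shares lie near or under the backgrounds.

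The members spread widely within the treated groups. The SD within a group of log2(value + 1) had a median over members of 0.13 in control, 0.50 in naphthalene and 0.47 in osimertinib. The median over all genes was 0.12, 0.26 and 0.25. Over all genes with a mean between the lowest and highest member mean (4.07 and 160 CPM) it was 0.11, 0.23 and 0.23. Levels were not matched within that range. All 45 members were above the all-gene median in osimertinib, 39 in naphthalene and 26 in control. Summed over the 45 members, the control libraries had 1004 to 1163 CPM, naphthalene 1 to 3 had 1220, 1392 and 789, and osimertinib 1 to 5 had 1224, 1350, 873, 1559 and 776. Both treated groups thus held libraries above and below every control. As a share of reads outside ENSMUSG00000119584, the members had 0.153% to 0.173% in control. They had 0.161%, 0.174% and 0.064% in naphthalene 1 to 3, and 0.190%, 0.172%, 0.0754%, 0.238% and 0.114% in osimertinib 1 to 5.

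**Figure D2:**
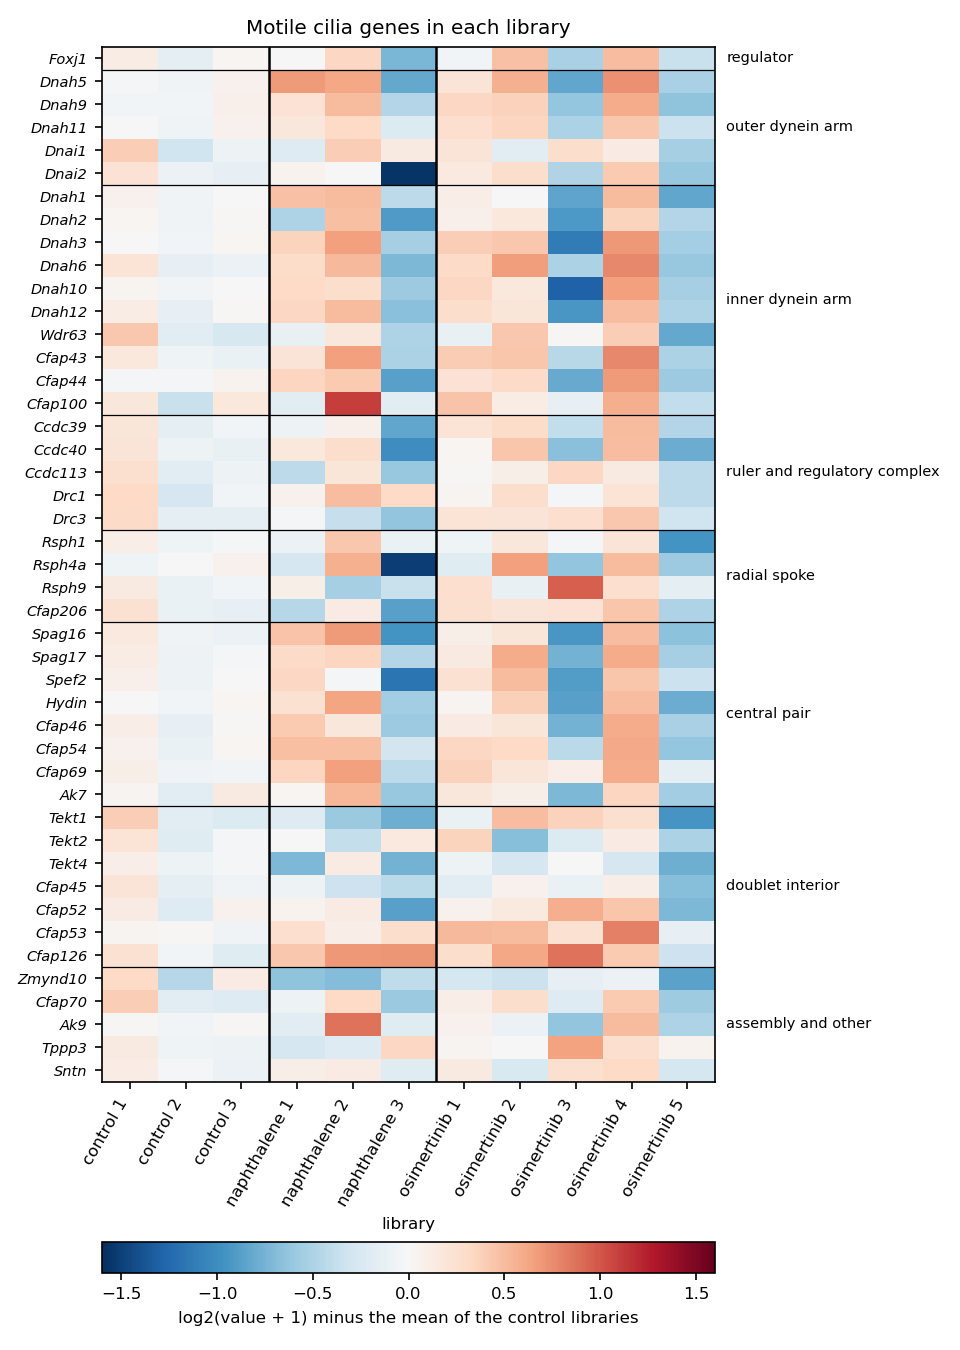
Each of the 45 genes (rows, grouped by role) in each of the 11 libraries (columns), as log2(value + 1) minus the mean of the control libraries, red above and blue below. Osimertinib 4 is above the controls in most rows (median 0.45), naphthalene 3, osimertinib 3 and osimertinib 5 below in most (medians −0.56, −0.43 and −0.53).

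Osimertinib 5 was below every control for 44 of 45 members, all but Tppp3, as were 30.1% of all genes. Naphthalene 3 was below every control for 37, where 39.6% of all genes were, and osimertinib 3 for 25, where 39.7% were. Osimertinib 4 was above every control for 36 members, where 25.6% of all genes were, and naphthalene 2 for 29, where 25.7% were. The highest library was osimertinib 4 for 19 members and naphthalene 2 for 12, and the lowest was naphthalene 3 for 16, osimertinib 5 for 14 and osimertinib 3 for 12. The ratio of the highest to the lowest library ran from 1.61 for Sntn to 5.22 for Dnai2, whose lowest value rests on 5 reads.

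Foxj1 (ENSMUSG00000034227) had 51.5, 42.2 and 48.5 CPM in control 1 to 3, 47.4, 59.7 and 28.0 in naphthalene 1 to 3, and 45.7, 65.9, 32.5, 66.8 and 36.8 in osimertinib 1 to 5. Naphthalene 3, osimertinib 3 and osimertinib 5 were below every control, naphthalene 2, osimertinib 2 and osimertinib 4 above, and the groups overlapped. Its log2 difference was −0.13 ± 0.30 (SE) in naphthalene against control, 0.14 ± 0.27 in osimertinib against naphthalene and 0.0089 ± 0.27 in osimertinib against control, with limma adjusted p of 0.969, 0.889 and 0.999.

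Most other members, mainly the longer ones, followed the library order of Foxj1. Spearman's rho with Foxj1 over the 11 libraries, which share their scaling and depth, had a median of 0.78 over the other 44 members, and 26 of them (59.1%) were above 0.7, as were 2.54% of all genes kept, whose median was −0.05. The most alike were Ccdc40 (0.94), a ruler protein that sets the repeat of the arms, and Dnah6 (0.91), an inner arm heavy chain, and the least alike were Tppp3 (−0.35), Cfap126 (−0.08) and Tekt2 (−0.08). Of the other members under 3 kb of exon only Rsph1 (0.78) was above 0.7, and the rest ran from −0.35 (Tppp3) to 0.57 (Cfap52). Longer members ran from 0.41 (Drc3) to 0.94 (Ccdc40). The part of length in these values was not tested. These are descriptions of 11 libraries from 3 groups.

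In the outer dynein arm, which supplies most of the power of the stroke, Dnah5 (ENSMUSG00000022262), a heavy chain, had 91.2, 88.7 and 96.5 CPM in control 1 to 3, 148, 142 and 51.9 in naphthalene 1 to 3, and 106, 137, 51.2, 154 and 64.0 in osimertinib 1 to 5. The controls lay within a narrow band, and each treated group had libraries on both sides of it. Its log2 difference in naphthalene against control was 0.16 ± 0.43 (limma adjusted p = 0.975). Dnai1 (ENSMUSG00000061322), an intermediate chain that anchors the arm, had 6.76, 3.73 and 4.55 in control 1 to 3, 4.10, 6.72 and 5.51 in naphthalene 1 to 3, and 5.80, 4.24, 6.15, 5.45 and 3.07 in osimertinib 1 to 5. Here control 1 was the highest and osimertinib 5 the lowest, and naphthalene 3 was not low. The 5 outer arm members had a median log2 difference of 0.09 in naphthalene against control, −0.08 in osimertinib against naphthalene and 0.0069 in osimertinib against control.

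Within the outer arm the balance of heavy chains varied little among the controls. The ratio of Dnah5 to Dnah9, the heavy chains of the same arm, per kilobase was 2.01 ± 0.03 (SD, n = 3) in control, 2.16 ± 0.58 (n = 3) in naphthalene and 2.06 ± 0.26 (n = 5) in osimertinib, with 1.58 in naphthalene 3 as the lowest and 2.74 in naphthalene 1 as the highest. The treated means lay within their own SDs of the control mean, but farther from it than the small SD of the controls.

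Among the inner arm members, which shape the bend, Dnah2 (ENSMUSG00000005237), a heavy chain, had 16.8, 15.8 and 16.6 CPM in control 1 to 3, 11.4, 23.3 and 8.26 in naphthalene 1 to 3, and 17.3, 18.5, 8.20, 21.3 and 11.6 in osimertinib 1 to 5. Naphthalene 1, which was above the controls for Dnah5, was below them for Dnah2. Dnah1 (ENSMUSG00000019027), also a heavy chain, had 18.4, 16.7 and 17.3 in control 1 to 3, 24.6, 25.3 and 12.8 in naphthalene 1 to 3, and 18.9, 17.5, 9.27, 25.1 and 9.40 in osimertinib 1 to 5. It had the lowest log2 difference of any member in osimertinib against naphthalene, −0.40 ± 0.31 (limma adjusted p = 0.703), with groups that overlapped. The 10 inner arm members had medians of 0.04, −0.06 and −0.03 in the 3 comparisons in turn.

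Of the ruler proteins and the dynein regulatory complex, which set where the arms sit and how they are held, Ccdc39 (ENSMUSG00000027676), the partner of Ccdc40, had 26.3, 20.4 and 22.1 CPM in control 1 to 3, 21.5, 24.1 and 12.4 in naphthalene 1 to 3, and 26.7, 28.1, 17.1, 32.7 and 16.1 in osimertinib 1 to 5. It followed the order of Foxj1, with naphthalene 3 lowest and osimertinib 4 highest. Drc1 (ENSMUSG00000073102), a core subunit of the regulatory complex, had 11.4, 7.27 and 8.62 in control 1 to 3, 9.47, 13.1 and 11.5 in naphthalene 1 to 3, and 9.24, 11.1, 8.73, 10.6 and 6.46 in osimertinib 1 to 5. Naphthalene 2 and 3 were just above the highest control and naphthalene 1 within the control range, with a log2 difference of 0.30 ± 0.21 (limma adjusted p = 0.825), and the groups overlapped.

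Drc3 (ENSMUSG00000056598), of the same complex, had 17.6, 12.6 and 12.6 CPM in control 1 to 3, 13.9, 10.7 and 8.72 in naphthalene 1 to 3, and 16.6, 16.4, 17.1, 19.3 and 11.1 in osimertinib 1 to 5. Of the osimertinib libraries 4 were above all naphthalene libraries, and osimertinib 5 was not. The log2 difference in osimertinib against naphthalene was 0.50 ± 0.19, with an unadjusted p of 0.0245 and an adjusted p of 0.399 in limma, the smallest adjusted value of any member in that comparison. Ruler and regulatory members had medians of −0.28, 0.31 and 0.03 in the 3 comparisons in turn (n = 5 genes).

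In the radial spokes, which pass signals from the central pair to the arms, Rsph1 (ENSMUSG00000024033), a spoke head protein, had 10.2, 8.97 and 9.22 CPM in control 1 to 3, 8.84, 13.1 and 8.72 in naphthalene 1 to 3, and 8.93, 10.9, 9.27, 11.04 and 4.40 in osimertinib 1 to 5. Only osimertinib 5 was far below the controls. Cfap206 (ENSMUSG00000028294), found at the spoke base, had 14.9, 11.5 and 11.4 in control 1 to 3, 8.84, 13.8 and 6.42 in naphthalene 1 to 3, and 15.1, 14.6, 14.9, 17.4 and 8.60 in osimertinib 1 to 5. Its log2 difference in osimertinib against naphthalene was 0.52 ± 0.24 (limma adjusted p = 0.49), and osimertinib 5 lay among the naphthalene libraries. The 4 spoke members had medians of −0.33, 0.43 and 0.04 in the 3 comparisons in turn.

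In the central pair apparatus, Hydin (ENSMUSG00000059854), a large projection protein, had 52.5, 51.0 and 53.8 CPM in control 1 to 3, 62.5, 81.9 and 35.3 in naphthalene 1 to 3, and 54.3, 68.6, 28.2, 74.0 and 29.7 in osimertinib 1 to 5. Spag17 (ENSMUSG00000027867), another projection protein, had 15.7, 13.5 and 14.0 in control 1 to 3, 18.0, 18.6 and 10.1 in naphthalene 1 to 3, and 16.0, 22.2, 8.11, 22.2 and 9.60 in osimertinib 1 to 5. For both, naphthalene 3, osimertinib 3 and osimertinib 5 were below every control and each of the other treated libraries above. The log2 differences of Hydin were 0.11 ± 0.37, −0.26 ± 0.33 and −0.15 ± 0.33 in the 3 comparisons in turn, with limma adjusted p of 0.984, 0.829 and 0.999. The 8 central pair members had medians of 0.06, −0.09 and −0.04.

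The doublet interior proteins, which line the inside of the microtubules and stiffen them, had rho values with Foxj1 from −0.08 to 0.67. Tekt1 (ENSMUSG00000020799), a tektin filament protein, had 9.60, 6.09 and 5.95 CPM in control 1 to 3, 6.00, 4.35 and 3.67 in naphthalene 1 to 3, and 6.49, 10.3, 9.36, 8.58 and 3.20 in osimertinib 1 to 5. Of the naphthalene libraries 2 were below every control and 1 within their range, osimertinib 5 was the lowest of all, and the other osimertinib libraries were above every naphthalene library. Its log2 difference was −0.53 ± 0.34 in naphthalene against control and 0.54 ± 0.30 in osimertinib against naphthalene, with limma adjusted p of 0.794 and 0.581.

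Cfap126 (ENSMUSG00000026649), which helps to place the basal bodies, had 8.75, 6.94 and 6.15 CPM in control 1 to 3, 10.1, 12.3 and 12.4 in naphthalene 1 to 3, and 9.01, 11.6, 14.0, 9.98 and 5.53 in osimertinib 1 to 5. Every naphthalene library was above every control, and osimertinib 5 was below them. The log2 difference in naphthalene against control was 0.61 ± 0.26, with an unadjusted p of 0.0372 and an adjusted p of 0.639 in limma. Cfap53 (ENSMUSG00000035394), also of the doublet interior, had 3.35, 3.27 and 3.07 in control 1 to 3, 4.10, 3.56 and 4.13 in naphthalene 1 to 3, and 5.04, 5.03, 4.01, 6.38 and 2.87 in osimertinib 1 to 5. In naphthalene its libraries did not overlap the controls, and in osimertinib replicate 5 alone lay below them. The log2 difference in osimertinib against control was 0.39 ± 0.20 (limma adjusted p = 0.999).

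Tekt4 (ENSMUSG00000024175), another tektin, had 5.80, 4.98 and 5.21 CPM in control 1 to 3, 2.84, 5.93 and 2.75 in naphthalene 1 to 3, and 4.96, 4.24, 5.35, 4.26 and 2.67 in osimertinib 1 to 5. Naphthalene 2 was above the controls and the other two below, and the log2 difference in osimertinib against control was −0.28 ± 0.24 (limma adjusted p = 0.999). Over the 7 doublet interior members the medians were −0.23, 0.17 and 0.01 in the 3 comparisons in turn.

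Among the remaining members, Zmynd10 (ENSMUSG00000010044), needed to assemble dynein arms in the cytoplasm, had 8.98, 4.85 and 7.75 CPM in control 1 to 3, 4.10, 3.96 and 5.05 in naphthalene 1 to 3, and 5.57, 5.29, 6.33, 6.52 and 3.40 in osimertinib 1 to 5. Control 2 lay among the naphthalene libraries, so the groups overlapped. The log2 difference in naphthalene against control was −0.58 ± 0.25, with an unadjusted p of 0.0374 and an adjusted p of 0.639 in limma. Ak9 (ENSMUSG00000091415), an adenylate kinase, had 9.26, 8.84 and 9.22 in control 1 to 3, 7.89, 17.4 and 7.80 in naphthalene 1 to 3, and 9.62, 8.47, 5.52, 13.3 and 6.20 in osimertinib 1 to 5. Its naphthalene mean rested on 1 library: the log2 difference in osimertinib against naphthalene was −0.29 ± 0.29 (limma adjusted p = 0.774) and turned to 0.06 without naphthalene 2.

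Tppp3 (ENSMUSG00000014846) had 165, 142 and 141 CPM in control 1 to 3, 124, 129 and 187 in naphthalene 1 to 3, and 154, 148, 233, 181 and 156 in osimertinib 1 to 5. Naphthalene 3 and osimertinib 3, low for most members, were its highest libraries, and osimertinib 5 lay within the control range. Sntn (ENSMUSG00000044772), a protein of the ciliary tip, had 7.10, 6.29 and 5.95 in control 1 to 3, 6.95, 7.12 and 5.51 in naphthalene 1 to 3, and 7.18, 5.29, 7.84, 8.25 and 5.13 in osimertinib 1 to 5. It varied least of all members across libraries, and its groups overlapped.

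**Figure D3:**
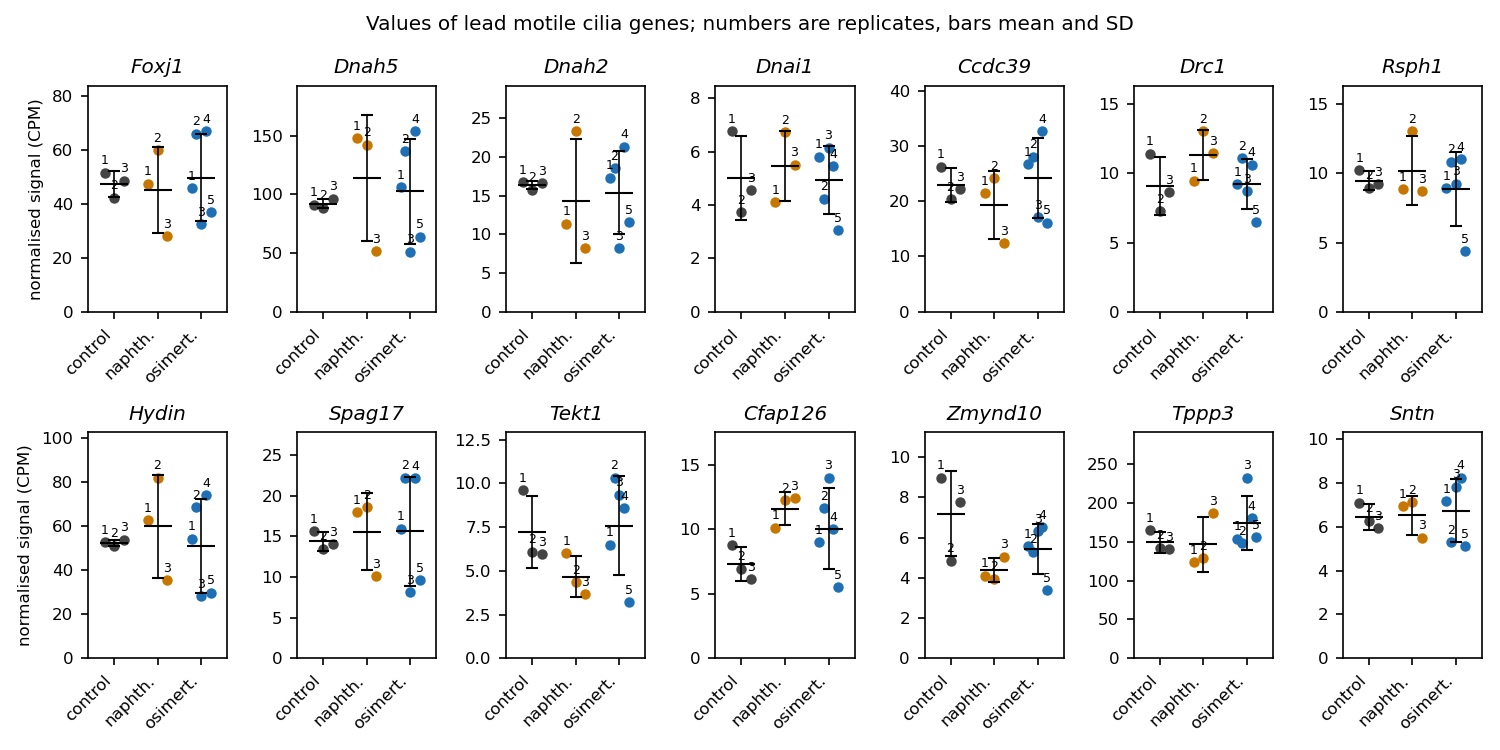
Values of 14 members in the 11 libraries, in CPM on an axis from 0 (y), by group (x), 1 point a library with its replicate number, and bars for the mean and SD. Controls lie close together for Dnah5 and Hydin, while the treated groups reach to both sides of them, and for Tppp3 the highest library is osimertinib 3 at 233.

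The direction within the low libraries went with the length of the gene in 1 library in particular. Members were put in 4 classes by exon length, set after the values had been seen: 16 under 3 kb, 8 from 3 to 6 kb, 10 from 6 to 10 kb and 11 over 10 kb, the last being the 9 dynein heavy chains, Hydin and Cfap54. In osimertinib 3 the median log2 difference from the control mean was 0.25, −0.17, −0.71 and −0.85 from the shortest class to the longest, where all genes of these classes had 0.27, 0.02, −0.08 and −0.18. Spearman's rho of difference with length in osimertinib 3 was −0.79 over the 45 members and −0.27 over all genes.

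In the other libraries rho over the members ran from −0.55 in control 1 to 0.65 in osimertinib 4. In osimertinib 5 the members' class medians were −0.46, −0.58, −0.51 and −0.55, with a rho of −0.13 (0.08 over all genes). Naphthalene 3 had −0.27, −0.60, −0.70 and −0.56, with a rho of −0.27 (−0.11 over all genes), and osimertinib 4 had 0.26, 0.42, 0.55 and 0.60, where rho over all genes was 0.03. Osimertinib 3 is also the library with 16.7% of its reads in 1 gene, and the part of that share in the members' values was not tested. Per kilobase the ratio of Dnah5 to Tppp3, a long and a short member, was 0.07 ± 0.0079 (SD, n = 3) in control, and over all libraries it ran from 0.026 in osimertinib 3 to 0.141 in naphthalene 1.

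**Figure D4:**
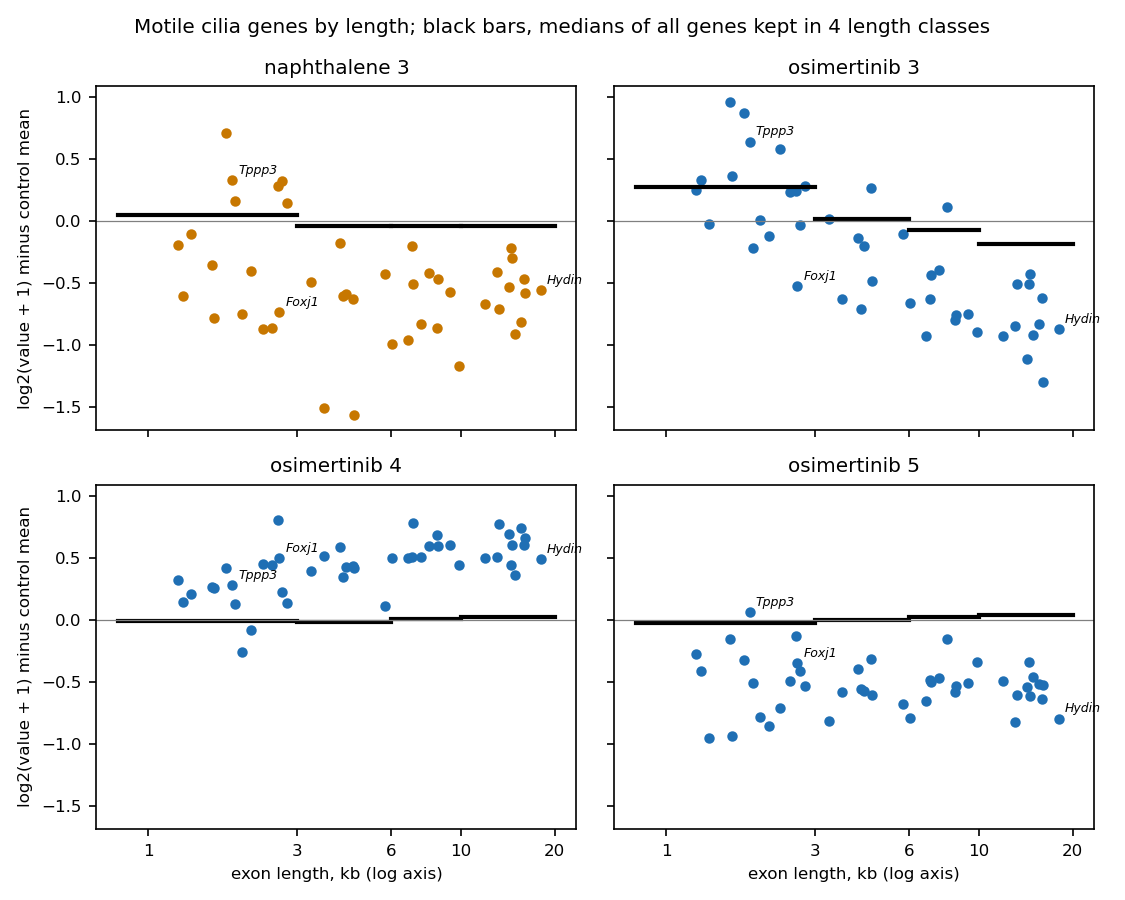
Difference of each of the 45 members from the control mean, log2(value + 1) (y), against exon length in kb on a log axis (x), in naphthalene 3, osimertinib 3, osimertinib 4 and osimertinib 5; black bars are medians of all genes kept in the 4 length classes. In osimertinib 3 short members lie around 0.25 and members over 10 kb around −0.85, while in osimertinib 5 the members lie low at every length.

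Other genes of the cilium, from 8 lists that leave out the members, also had none called. Those with a mean of at least 1 numbered 91. Limma called 0 of them in each comparison, with smallest adjusted p of 0.482, 0.263 and 0.613 in the 3 comparisons in turn. At an unadjusted p under 0.05 there were 1 higher and 4 lower, 5 higher and 0 lower, and 0 higher and 2 lower, of 91 genes. The backgrounds were 1.73% and 5.74%, 7.08% and 3.22%, and 2.31% and 2.5% of all genes. Their median log2 differences were −0.08, 0.09 and 0.02.

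By list, with medians in the same order of comparisons, intraflagellar transport, which carries cargo along the cilium, had −0.06, 0.06 and 0.05 (21 genes), and other dynein chains and docking proteins −0.08, 0.04 and −0.03 (17 genes). Dynein assembly factors had −0.24, 0.20 and −0.10 (10 genes), other spoke and central pair proteins −0.09, 0.13 and 0.04 (10), other doublet interior proteins −0.09, 0.12 and 0.09 (9), and centriole amplification −0.29, 0.11 and −0.04 (6). Upstream regulators of ciliogenesis had −0.05, −0.22 and −0.19 (8). Every one of these 7 lists had 0 genes called in each comparison.

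The gene with the largest difference in each list is given as a value, since none passed the test. Gmnc, which starts the multiciliated cell fate upstream of Foxj1, had 5.17, 5.50 and 7.02 CPM in control 1 to 3, 2.84, 4.75 and 1.38 in naphthalene 1 to 3, and 1.98, 2.12, 0.624, 3.59 and 2.40 in osimertinib 1 to 5. Every control was above every treated library. Of all genes, 11.2% had every naphthalene library below every control, and 3.43% every osimertinib library. The log2 difference of Gmnc in osimertinib against control was −1.20 ± 0.33 (limma adjusted p = 0.613). Its treated values rest on few reads: 1 read is 0.459 CPM in naphthalene 3, where it had 1.38. In osimertinib against naphthalene Ift46, of the transport complex, had 0.61 ± 0.18, Plk4, the centriole kinase, 0.56 ± 0.20, and Dnajb13, of the spokes, 0.54 ± 0.22, with limma adjusted p of 0.263, 0.354 and 0.41. In naphthalene against control Ccdc151, of the docking complex, had −0.56 ± 0.37, Spag8, of the doublet interior, −0.54 ± 0.27, and Dyx1c1, an assembly factor, −0.49 ± 0.42, with limma adjusted p of 0.795, 0.715 and 0.863. Dyx1c1 was at 0 in naphthalene 3.

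Markers of multiciliated cells that are not members checked the label. All 10 (Ccdc153, Tmem212, Fam183b, Fam216b, Riiad1, Cdhr3, Cdhr4, Mlf1, Sec14l3 and Lrriq1) were kept, and their sum was 756 to 874 CPM in control, 829 to 909 in naphthalene and 683 to 892 in osimertinib. Sec14l3 alone made up 552 to 777 of these sums. Without it the other 9 summed to 97.4 to 117 in control, to 113, 141 and 85.8 in naphthalene 1 to 3, and to 117, 128, 130.3, 161 and 77.7 in osimertinib 1 to 5. Their median log2 differences were −0.04, 0.20 and 0.17, with 0 called in each comparison, and the largest was −0.59 ± 0.29 for Lrriq1 in osimertinib against naphthalene (limma adjusted p = 0.507). Against the control mean their median was 0.50 in osimertinib 4 and −0.38 in osimertinib 5, as for the members, but −0.09 in naphthalene 3 and 0.22 in osimertinib 3, where the members had −0.56 and −0.43.

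Markers of other airway cells lay with the members in part. The 4 goblet markers (Muc5ac, Muc5b, Bpifb1 and Spdef) summed to 224 to 410 CPM in control, 98.2 to 718 in naphthalene and 82.0 to 522 in osimertinib, most of it Muc5b, and none was at 0. Their library medians against control were 0.98, 0.68 and −1.29 in naphthalene 1 to 3 and −0.46, 0.41, −1.47, 0.50 and −1.09 in osimertinib 1 to 5, so the same 3 libraries were lowest as for the members. Bpifb1, a secreted airway protein, had 84.0, 86.5 and 75.9 in control 1 to 3, 136, 127 and 21.6 in naphthalene 1 to 3, and 52.7, 90.8, 12.0, 98.0 and 34.7 in osimertinib 1 to 5, and a log2 difference of −0.82 ± 0.67 in osimertinib against control (limma adjusted p = 0.999). The part of what the goblet markers follow in the members' values was not tested.

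The 8 club cell markers, by contrast, were below control in the median of every treated library. Mostly through Scgb1a1, they summed to 12259 to 15254 CPM in control, 5480 to 9864 in naphthalene and 2920 to 9431 in osimertinib, none was at 0, and the median log2 differences were −0.54, −0.40 and −0.99, with 0 called. Pon1 had −1.45 ± 0.27 in osimertinib against control (limma adjusted p = 0.313). Naphthalene 2 and osimertinib 4, high for the members, had club medians of −0.31 and −0.53 against control.

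Markers of the remaining cells had other orders of libraries, with naphthalene 3 and osimertinib 3, low for the members, among the highest in several. Those of all epithelium had medians of −0.02, 0.03 and 0.07 in the 3 comparisons in turn, with Cdh1 at −0.26 ± 0.23 against naphthalene. Against the control mean their highest library medians were 0.75 in osimertinib 3 and 0.18 in naphthalene 3, and osimertinib 5 had −0.17. In osimertinib 3 and in naphthalene 3, 4 of the 5 genes were above the control mean. Cdh1 was below it there, at 123 and 202 CPM, against 212 to 256 in control. The alveolar type 2 markers summed to 11839 to 13337 CPM in control and were highest in osimertinib 3 (27738) and naphthalene 3 (19206). For the alveolar type 1 markers naphthalene 3 had the highest library median (0.28) and osimertinib 3 had −0.14. The part of these markers in the members' values was not tested. In the group comparisons alveolar type 2 markers had 0.26, 0.15 and 0.49 (Lamp3 at 0.69 ± 0.21 in naphthalene against control), alveolar type 1 markers 0.0005, −0.13 and −0.20 (Akap5 at −0.45 ± 0.20 in osimertinib against naphthalene) and mesothelium markers 0.22, −0.34 and −0.23 (Msln at 0.64 ± 0.31 in osimertinib against control). None of these was called. The basal cell markers Krt14, Krt15, Trp63 and Ngfr were below a mean of 1.

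**Figure D5:**
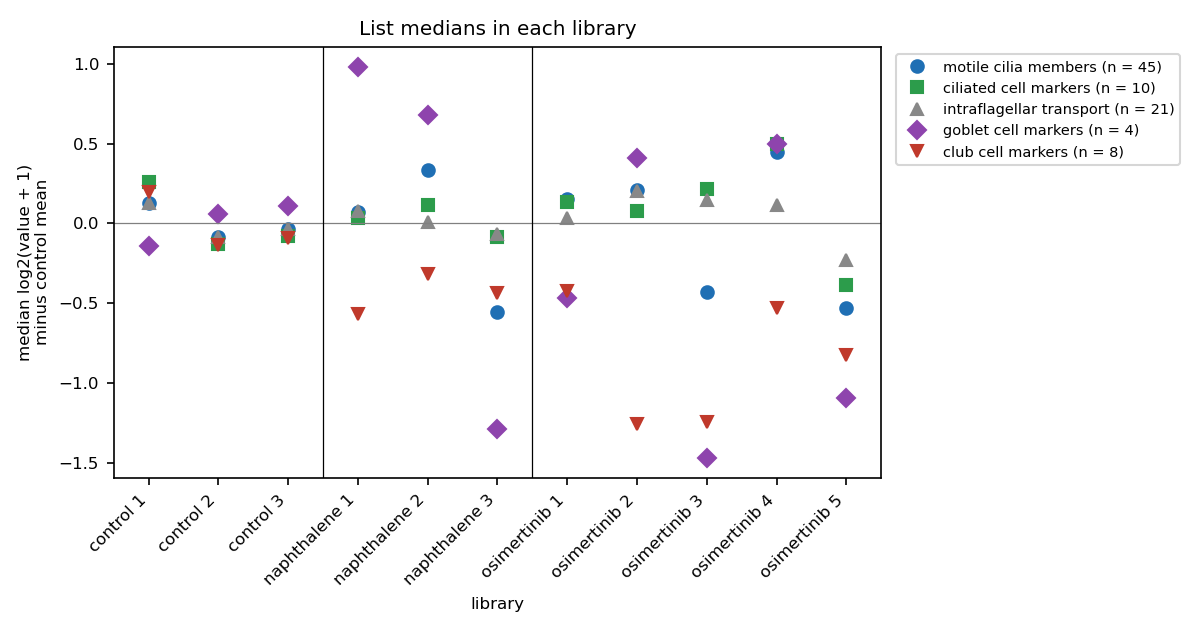
Median over each list of log2(value + 1) minus the control mean (y) in each of the 11 libraries (x) for the 45 motile cilia genes, ciliated cell markers, intraflagellar transport, goblet markers and club markers. Motile cilia and goblet medians are both low in naphthalene 3, osimertinib 3 and osimertinib 5, while ciliated cell markers lie at −0.09, 0.22 and −0.38 there.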

How the data were processed

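The data were deposited as 1 table of 23255 genes in 11 libraries. The deposited values are a normalised signal, CPM of a library size scaled by the authors, judging from the values: 100% were whole multiples of the value of 1 read, within 0.01, so whole reads were recovered. Build GRCm39, RSEM 1.3.0, Trimmomatic 0.38, edgeR and Bowtie2 are listed in the submitters' processing notes, without settings. Libraries were directional, per the labels' protocols, but the strand setting of the counting is not given in the sources used here. Names (23123 genes) and exon lengths came from GENCODE M21 (GRCm38), promoters from RefSeq, and no coordinates were converted.

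Genes with a mean of at least 1 (16225) were tested as log2(value + 1), a scale that understates changes of low genes, with limma 3.58.1 (R 4.3.3, variance trend, all groups in 1 fit with 8 residual degrees of freedom), adjusted by Benjamini-Hochberg, at 0.05. Members and lists were chosen with earlier results of these data known. Named were Foxj1, 1 or 2 lead genes per axonemal part, the highest level per length, and in each comparison the 2 largest and 2 smallest differences; Drc3, Ccdc40, Dnah6 and Rsph4a were chosen after their values were seen. Alternatives were other pseudocounts, filters and scalings, only the groups compared, array weights, no trend, a read-share term, 2 libraries left out together, a replicate block, each library left out, and, on recovered reads, DESeq2 1.42.0 or edgeR 4.0.16. Same-numbered naphthalene and osimertinib libraries had correlations of 0.122, 0.159 and 0.523 of their deviations. Only number 3 went best with its own number. Osimertinib 1 went best with naphthalene 2 and osimertinib 2 with naphthalene 1, while naphthalene 1 and 2 both went best with osimertinib 4. The labels do not pair the libraries, so the replicate block served only as an alternative setting. It also joined controls, whose correlations with same-numbered naphthalene libraries were −0.064, 0.203 and −0.093. A member's value rests on as few as 5 reads, and values of other genes can rest on fewer, as for Dyx1c1 with 0 in naphthalene 3. Of all genes, 55 share identical reads with another gene, 0 of them members.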

Additional observations from a re-analysis of the deposited data

How the results depend on the processing

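Under all 26 alternatives 0 members were called in each comparison, where these settings called 0 to 38, 0 to 47 and 0 to 149 of all genes. DESeq2 called 11, 21 and 75. Over all 26 alternatives the list medians ran from −0.37 to 0.19, −0.19 to 0.27 and −0.12 to 0.17 in the 3 comparisons in turn. Each moved by less than 0.38, the pooled SD of the library medians within groups. That limit is loose, since every median in the main fit was far smaller. Leaving out 1 library at a time gave −0.18 to 0.19, −0.19 to 0.17 and −0.12 to 0.12 in the same order. With the replicate number as a block, 0 members were called and the medians were 0.0066, 0.03 and 0.03; it changed no call. Among other scalings, the second median was −0.043 with quantile normalisation. Some differences changed sign. Foxj1 in osimertinib against control was −0.052 with equal totals, −0.11 with the read-share term, −0.030 with quantile normalisation, −0.032 with the replicate block, and −0.071, −0.11 and −0.11 without control 2, osimertinib 2 and osimertinib 4, with a range of −0.11 to 0.14 when 1 library was left out. Foxj1 in naphthalene against control was 0.022 with array weights and ranged from −0.36 to 0.17 (without naphthalene 2 and 3) when 1 library was left out, and in osimertinib against naphthalene from −0.16 to 0.37 (without naphthalene 3 and 2). Drc1 in naphthalene against control was −0.032 with the read-share term, and Ak9 in osimertinib against naphthalene ranged from −0.47 to 0.063 (without naphthalene 3 and 2). The cause was not tested. Naphthalene 3, with a median of 19 reads a member, is the least precise library.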
